A study of Homo sapiens with 4 samples.

Results

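Kinesins are motor proteins that use ATP to move along microtubules or to shorten them. The 42 genes described here are those of the deposited table whose symbol is KIF or KIFC followed by a number and at most one letter from A to C, among 60609 gene identifiers in all. They were compared between CCRF-CEM leukaemia cells kept in control medium and the same cells kept without glucose for 24 hours. CCRF-CEM cells are a long-established T-ALL line (acute leukaemia of T cell precursors), and both groups carry HA-tagged AMPK alpha 2, a catalytic subunit of the energy-sensing kinase AMPK. Total RNA was sequenced in 2 libraries of cells labelled as untreated (Ctrl: CTRL_7 and CTRL_8) and in 2 of glucose-deprived cells (No glucose: ONG_9 and ONG_10). The labels do not say whether the 2 libraries of a group came from separate cultures, and every p-value here therefore speaks only of how far these 4 libraries scatter, which may be technical. Whether the line is 1 clone is not given in the sources used here.

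Mitotic kinesins build the spindle, move and align chromosomes, and help the daughter cells separate, and in dividing cells their mRNAs rise towards mitosis. Transport kinesins carry vesicles, mitochondria, lysosomes and the trains that build cilia, mostly towards the growing ends of microtubules. A further set trims microtubule ends, works in cilia or has been little studied. The family was split on these lines into 12 mitotic kinesins, 15 transport kinesins and 15 others.

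CTRL_7 was the deepest library, with 96698709 reads in genes, and the other 3 held between 19035535 and 24513840. A normalized count is a gene's reads divided by the size factor of its library, and 1 read was worth 0.343 normalized counts in CTRL_7 and from 1.34 to 1.52 in the others. The 7 T lineage markers found summed to between 54833 and 55686 normalized counts in every library, with none at 0. Of 5 myeloid markers the sum was 33.4 to 54.7, with MPO at 0 throughout, and of 3 erythroid markers it was at most 1.37. The 5 B lineage markers summed to 894 to 907 in Ctrl and 523 to 536 without glucose, and 3 markers of adherent cells to 489 to 549.8 and 414 to 441; their part in the results was not tested. PRKAA2, the gene of AMPK alpha 2, had 409 normalized counts in both Ctrl libraries and 662 and 670.2 without glucose, and reads of the tagged copy and of the cell's own gene cannot be told apart.

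The mitotic kinesins were slightly lower without glucose almost throughout, while the transport kinesins included the 3 deepest falls among kinesins called and also the rises of KIF1A and KIF3B. Of the 36 kinesins averaging 1 normalized counts or more, 19 fell and 3 rose (limma with Benjamini-Hochberg adjustment over all genes tested, adjusted p under 0.05). Over all 27486 genes tested, 20.7% fell and 14.4% rose at that threshold. That background is not like the kinesins in level: among 5990 coding genes whose normalized counts averaged 1000 or more, 54.2% fell and 18.2% rose, and among the 19 kinesins at that level 14 fell and 2 rose. Among 10656 coding genes with a mean of at least 50 the shares were 47.2% and 18.9%, and among 28 kinesins at that level 18 fell and 2 rose. The groups of 22 kinesins had both No glucose libraries below both Ctrl libraries and those of 6 had both above, against 31.7% and 35.1% of all genes tested and 64% and 25% of coding genes averaging 1000 or more.

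Of the 12 mitotic kinesins 10 fell and none rose, with log2 fold changes from -0.60 to -0.03 and a median of -0.41. All 12 had a mean of at least 1000. Of coding genes at that level 54.2% fell and 18.2% rose, with a median of -0.24, and 64% had both No glucose libraries below both Ctrl libraries. The counts by role below hold few genes each and describe single genes. None was called higher by limma, edgeR, DESeq2 or limma-voom with the deposited or TMM scaling, nor at an unadjusted p under 0.05. When libraries were scaled to their totals, 8 were lower and KIF20B was higher. With that scaling 3818 of the 27486 genes tested fell and 6106 rose. Their summed share of all gene reads was 0.276% and 0.279% in CTRL_7 and CTRL_8 and 0.248% and 0.239% in ONG_9 and ONG_10. In bulk RNA, fewer cells at the stage that makes an mRNA and less of it per cell cannot be told apart.

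**Figure D1:**
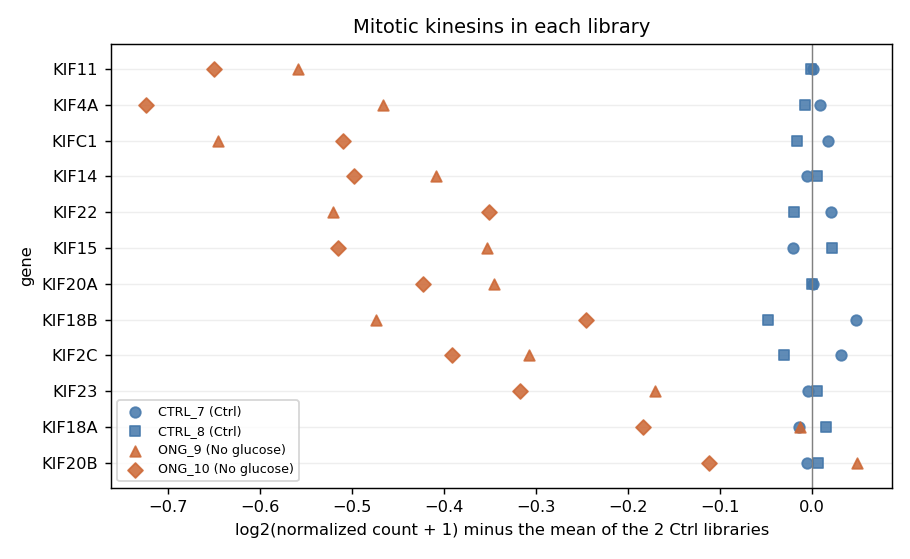
Level of each mitotic kinesin in each library as log2(normalized count + 1), minus the mean of the 2 Ctrl libraries. Circles and squares are Ctrl libraries, triangles and diamonds No glucose libraries; the No glucose libraries lie to the left of both Ctrl libraries for 10 of the 12 genes, and not for KIF18A and KIF20B.

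Motors that open and balance the spindle were among those that fell. KIF11, which slides antiparallel microtubules apart to make the spindle bipolar (chr10:92593286-92655395, plus strand), had 21846 and 21808 normalized counts in CTRL_7 and CTRL_8 and 14815 and 13905 in ONG_9 and ONG_10. Both No glucose libraries were well below both Ctrl libraries, with a log2 fold change of -0.60 ± 0.05 (SE) and adjusted p = 3.0e-06, the lowest fold change of the mitotic set. KIF15, which can stand in for KIF11 in keeping the spindle open, had 11385 and 11721.5 in Ctrl and 9039.6 and 8082 without glucose (log2 fold change -0.43 ± 0.06, adjusted p = 0.00015). KIFC1, a motor that moves the other way and gathers spindle poles and extra centrosomes, had 2031 and 1985 in Ctrl and 1283 and 1410.1 without glucose (-0.58 ± 0.07, adjusted p = 5.3e-05). The spread between the No glucose libraries was wider than that between the Ctrl libraries for each of the 3. In none of them did the groups overlap. Of coding genes averaging 1000 or more, 64% had both No glucose libraries below both Ctrl libraries, and 54.2% fell.

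Both chromosome-bound motors fell, as did 54.2% of coding genes averaging 1000 or more. KIF4A, which binds chromosomes and with PRC1 sets the length of the central spindle (chrX:70290090-70420832, plus strand), had 4189 and 4139.9 normalized counts in Ctrl and 3013 and 2521 without glucose (log2 fold change -0.60 ± 0.08, adjusted p = 0.00010). KIF22, which pushes chromosome arms towards the middle of the spindle, had 7979 and 7757 in Ctrl and 5483 and 6165 without glucose (-0.44 ± 0.06, adjusted p = 0.00020). The order of the No glucose libraries differed, with ONG_10 the lower for KIF4A and ONG_9 the lower for KIF22. In all, ONG_10 was below ONG_9 for 9 of the 12 mitotic kinesins.

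Among motors of late mitosis and cytokinesis, 3 of 4 fell, beside 54.2% of coding genes averaging 1000 or more. KIF14, which works with citron kinase in cytokinesis, had 8217 and 8277 normalized counts in Ctrl and 6212 and 5839.8 without glucose (log2 fold change -0.45 ± 0.05, adjusted p = 4.7e-05). KIF20A, which takes the Aurora B complex to the spindle midzone, had 6586 and 6581 in Ctrl and 5181 and 4911 without glucose (-0.38 ± 0.05, adjusted p = 0.00017). KIF23, the motor of the centralspindlin complex, had 6637 and 6681 in Ctrl and 5916 and 5344 without glucose (-0.24 ± 0.06, adjusted p = 0.0078). These 3 did not overlap between groups. Of coding genes averaging 1000 or more, 64% had both No glucose libraries below both Ctrl libraries. KIF20B, another motor of cytokinesis and a relative of KIF20A, had groups that overlapped, with 8961 and 9037 in Ctrl and 9306.5 and 8326 without glucose. Its log2 fold change was -0.03 ± 0.06 (adjusted p = 0.73), and it was above 0 with scaling to library totals.

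Of 3 motors that shorten or cap microtubules at the spindle, 2 fell, beside the same 54.2% of coding genes. KIF2C, which releases wrongly attached microtubules at centromeres, had 8037 and 7697 normalized counts in Ctrl and 6356 and 5996 without glucose (log2 fold change -0.35 ± 0.06, adjusted p = 0.00040). KIF18B, which acts on the astral microtubules, had 2649.7 and 2479.9 in Ctrl and 1845 and 2161 without glucose (-0.36 ± 0.08, adjusted p = 0.0040). KIF18A, which damps the swing of chromosomes at metaphase, had 3108 and 3171 in Ctrl and 3109.8 and 2763 without glucose. The groups of KIF18A overlapped by the narrowest margin, ONG_9 lying between the Ctrl libraries, and its log2 fold change of -0.10 ± 0.07 missed the threshold (adjusted p = 0.30) and turned above 0 with library totals. Differences between paralogs such as KIF18A and KIF18B were not tested.

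These calls rested on both Ctrl libraries. Without CTRL_7, and likewise without CTRL_8, limma called 0 of the 12 mitotic kinesins, with 8 and 9 lower at an unadjusted p under 0.05, although their median log2 fold change stayed at -0.40 and -0.41. No other tool was run without a library. The adjusted p of KIF11 was 0.051 without CTRL_7 and 0.053 without CTRL_8, and all genes called fell alike, to 1573 lower and 726 higher without CTRL_7 and 1691 and 635 without CTRL_8. The spread in those fits comes from the No glucose pair alone. Centring the values on the median coding gene with a mean of at least 50, a setting chosen after seeing the data, moved the median of all genes tested from 0.04 to 0.22 and that of the mitotic kinesins to -0.21, and left 7 lower: KIF11, KIF4A, KIFC1, KIF14, KIF22, KIF15 and KIF20A.

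**Figure D2:**
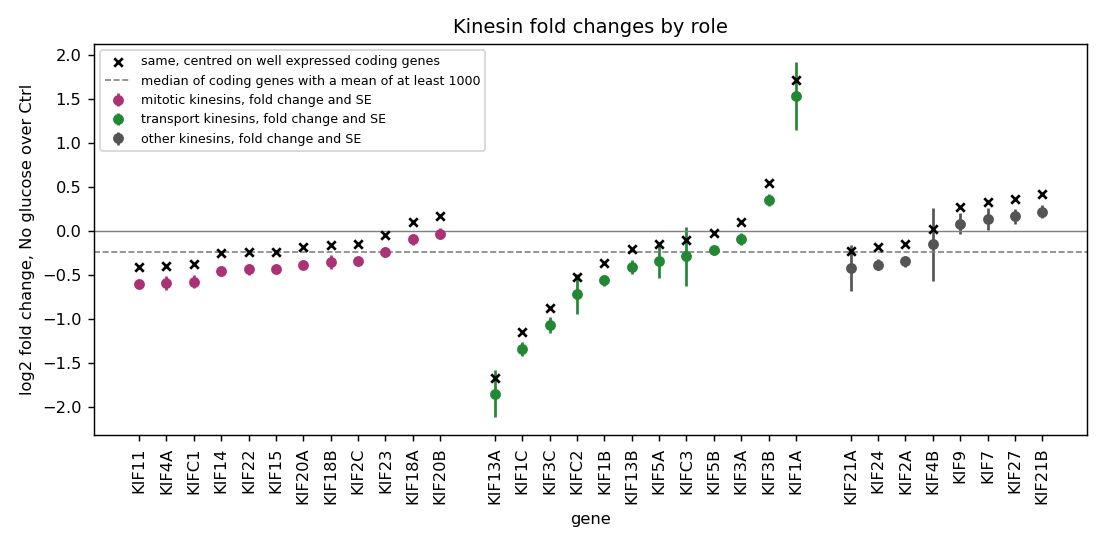
Log2 fold change of each kinesin averaging 10 normalized counts or more, with its SE, by role; crosses give the fold change after centring on well expressed coding genes, and the dashed line is the median of coding genes with a mean of at least 1000 (-0.24). The mitotic kinesins lie between -0.60 and -0.03, and the transport kinesins between -1.85 and 1.53.

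The promoters of the mitotic kinesins are shown because 10 of the 12 genes fell and all 12 hold an element that the rule did not use. Genes expressed late in the cell cycle often carry a CHR, a short element near the start site that is bound by the DREAM complex in resting cells and by a MYB-containing complex in dividing cells, frequently downstream of CCAAT boxes, which bind NF-Y. RefSeq promoter windows (GRCh38.p14), 250 bases before to 50 after each annotated start, were matched by symbol for 34 of the 42 kinesins. They were searched on both strands for the hexamer TTTGAA and its variants TTCGAA and also TTTAAA (called CHR-type hexamers here), and for the box CCAAT, with no overlap between the hexamers and the box. These motifs were chosen after the values were seen, from several that were looked at, so the counts below are a description. A CHR-type hexamer stood in 12 of 12 mitotic promoters, 2 of 11 transport promoters and 2 of 11 other kinesin promoters, against 25.3% of 27305 promoters in all. Without the variant TTTAAA the counts were 10 of 12 mitotic, 1 of 11 transport and 2 of 11 other promoters, against 16.6% of all. CCAAT stood in 10 of 12 mitotic, 3 of 11 transport and 4 of 11 other promoters, and in 35.7% of all. In the windows below the hexamers and the CCAAT boxes, which read as ATTGG where they lie on the other strand, are in capitals, and all read 5′ to 3′ on the gene's strand.
KIF11 promoter, chr10:92592880-92593179, plus strand: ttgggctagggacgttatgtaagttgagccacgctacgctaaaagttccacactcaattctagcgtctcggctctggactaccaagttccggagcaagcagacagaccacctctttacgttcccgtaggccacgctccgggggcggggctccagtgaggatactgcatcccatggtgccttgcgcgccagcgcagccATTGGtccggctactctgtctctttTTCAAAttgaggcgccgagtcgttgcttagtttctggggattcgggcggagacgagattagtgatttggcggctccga
KIF4A promoter, chrX:70289854-70290153, plus strand: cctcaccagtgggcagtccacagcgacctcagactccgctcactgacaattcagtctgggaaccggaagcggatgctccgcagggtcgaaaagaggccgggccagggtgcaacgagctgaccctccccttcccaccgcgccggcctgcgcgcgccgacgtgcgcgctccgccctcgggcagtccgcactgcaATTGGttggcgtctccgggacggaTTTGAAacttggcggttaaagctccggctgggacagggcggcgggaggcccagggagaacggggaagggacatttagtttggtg
KIF20A promoter, chr5:138178862-138179161, plus strand: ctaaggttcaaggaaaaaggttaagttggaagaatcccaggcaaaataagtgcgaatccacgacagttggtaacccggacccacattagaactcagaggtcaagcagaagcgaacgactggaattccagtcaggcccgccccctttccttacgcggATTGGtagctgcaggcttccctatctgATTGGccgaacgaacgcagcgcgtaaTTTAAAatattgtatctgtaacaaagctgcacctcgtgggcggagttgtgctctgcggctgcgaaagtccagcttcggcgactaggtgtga
KIF23 promoter, chr15:69414099-69414398, plus strand: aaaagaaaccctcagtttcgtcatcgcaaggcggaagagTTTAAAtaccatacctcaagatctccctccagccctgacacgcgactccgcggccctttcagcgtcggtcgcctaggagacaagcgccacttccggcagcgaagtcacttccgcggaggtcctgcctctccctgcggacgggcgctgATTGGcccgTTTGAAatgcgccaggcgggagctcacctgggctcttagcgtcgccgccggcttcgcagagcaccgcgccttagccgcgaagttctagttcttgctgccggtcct
KIF20B promoter, chr10:89701340-89701639, plus strand: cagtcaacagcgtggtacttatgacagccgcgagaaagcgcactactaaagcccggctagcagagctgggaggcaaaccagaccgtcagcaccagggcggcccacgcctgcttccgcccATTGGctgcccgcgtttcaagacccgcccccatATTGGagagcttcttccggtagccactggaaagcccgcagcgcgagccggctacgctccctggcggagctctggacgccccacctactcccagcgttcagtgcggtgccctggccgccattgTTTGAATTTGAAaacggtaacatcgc
KIF5B promoter, chr10:32056376-32056675, minus strand: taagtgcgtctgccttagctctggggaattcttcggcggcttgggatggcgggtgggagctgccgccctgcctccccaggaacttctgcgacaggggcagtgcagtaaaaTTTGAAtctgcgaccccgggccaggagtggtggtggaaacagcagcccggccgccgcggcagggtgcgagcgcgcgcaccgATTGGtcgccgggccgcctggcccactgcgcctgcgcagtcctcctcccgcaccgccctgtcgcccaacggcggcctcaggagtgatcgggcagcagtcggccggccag
The windows follow RefSeq starts, which differ from the GENCODE gene bounds given for some of these genes. The hexamer nearest the start began at base -28 in KIF11, -34 in KIF4A, -41 in KIF20A and -55 in KIF23, each with a CCAAT box upstream of it. KIF20B, which was not called, held the hexamer 2 times in a row at bases 25 and 31 and CCAAT boxes at -131 and -98, and KIF18A, also not called, held the hexamer at -10 and a CCAAT box at -45. So the elements stood both in mitotic kinesins that fell and in the pair that did not pass the test. Among the other kinesins, KIF24, which fell, held a hexamer at base 2 and CCAAT boxes at -154, -100 and -47. KIF4B, which was not called, held a hexamer at base 4 and CCAAT boxes at -202 and -21. KIF2A, which fell, held neither element. KIF5B, the transport kinesin shown for contrast, held a hexamer at -140, upstream of its CCAAT box at -59. A match is a description of these letters and not evidence of binding.

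**Figure D3:**
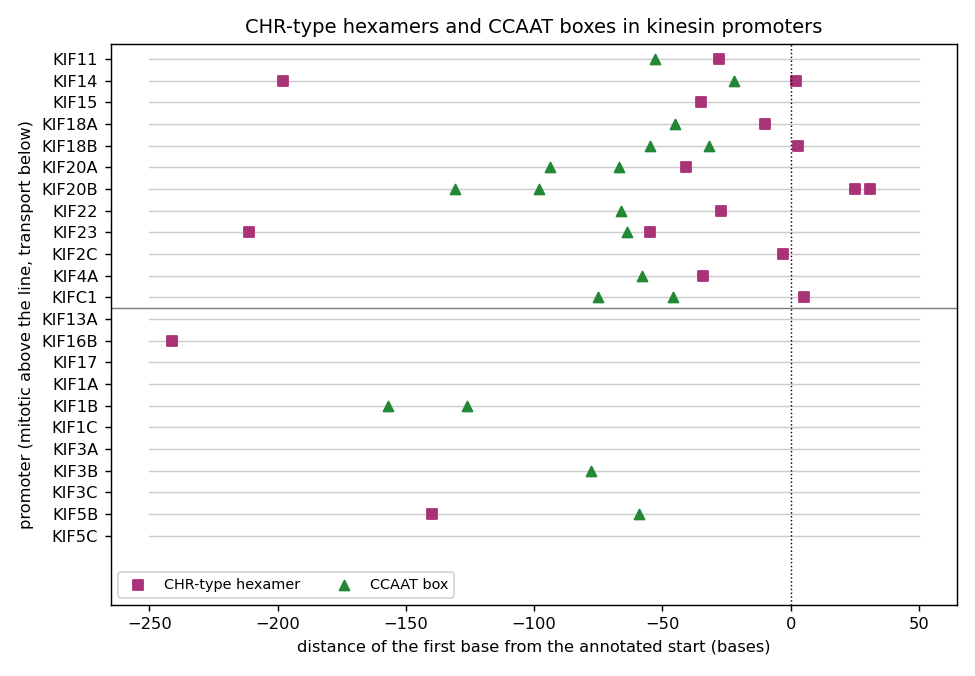
Positions of CHR-type hexamers (squares) and CCAAT boxes (triangles) in the promoter windows of mitotic kinesins (above the line) and transport kinesins (below), as distance of the first base from the annotated start. Every mitotic promoter holds a hexamer at or after base -55, while the 2 hexamers among transport promoters lie at -140 and further upstream. The other kinesins are not drawn, and of these KIF24 and KIF4B hold a hexamer at bases 2 and 4.

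Among the transport kinesins, 7 of the 14 tested fell and 2 rose, with a median log2 fold change of -0.32. Of all genes tested 20.7% fell and 14.4% rose, and of coding genes averaging 50 or more 47.2% fell and 18.9% rose. The 14 include genes averaging under 50, such as KIF13A and KIF1A. Neither background is therefore matched to them in level, and the account below is of single genes. KIF13A, KIF1C, KIF3C and KIFC2 fell by more than any mitotic kinesin, KIFC2 with its No glucose libraries far apart. KIF5B, the most abundant transport kinesin, fell little. Only 4 of the 14 had a mean of at least 1000, of which 2 fell and 1 rose. Of coding genes at that level 54.2% fell and 18.2% rose. Scaled to library totals, 4 of the 14 fell and 2 rose, with a median of -0.12, where the median of all genes tested was 0.23. Without CTRL_7 or without CTRL_8 3 fell (KIF1C, KIF3C and KIF1B) and none rose, with 2 higher at an unadjusted p under 0.05 each time.

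The KIF1 and KIF13 genes encode motors of vesicles and organelles. KIF1C, which carries dense-core and integrin vesicles (chr17:4997948-5028401, plus strand), had 1315 and 1335 normalized counts in Ctrl and 491 and 553 without glucose. That is 0.394 times the Ctrl level, a log2 fold change of -1.34 ± 0.08 with adjusted p = 3.5e-07, and the call held under every alternative run, with adjusted p = 0.029 without either Ctrl library. KIF1B, which carries mitochondria and synaptic vesicle precursors, had 2296 and 2302 in Ctrl and 1587 and 1522 without glucose (-0.56 ± 0.06, adjusted p = 2.8e-05). KIF1A, its relative of neurons, went the other way from a very low level, 6.53 and 5.35 in Ctrl to 19.7 and 18.2 without glucose, on 19, 4, 13 and 13 reads. Its log2 fold change of 1.53 ± 0.39 (adjusted p = 0.0097) was not called by DESeq2 (adjusted p = 0.17), and leaving out any 1 library gave adjusted p from 0.054 to 0.15. Per kb of exon, KIF1C made up 54.2% and 54.5% of the 3 KIF1 genes in Ctrl and 38.6% and 42.4% without glucose, and KIF1B 45.6% and 45.3% against 60.2% and 56.4%. The exon length of KIF1B joins its long and short forms, which lowers its level per kb.

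KIF13A, which takes cargo from the trans-Golgi and recycling endosomes to the cell surface, had 50.5 and 54.8 normalized counts in Ctrl and 15.2 and 12.6 without glucose. Its fold change was the deepest of the family, -1.85 ± 0.27 (adjusted p = 0.00021), on 10 and 9 reads without glucose, with adjusted p = 0.062 without CTRL_7 and 0.075 without CTRL_8. KIF13B, a related motor that binds the scaffold DLG1, had 726 and 702 in Ctrl and 532 and 544 without glucose (-0.41 ± 0.08, adjusted p = 0.0019; not called with library totals, adjusted p = 0.069). Both fell, and KIF13B supplied 92.4% or more of their summed level per kb in every library.

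The KIF3 genes encode the heterodimeric motors that, with the adaptor KIFAP3, move cargo in cilia and cytoplasm. KIF3C (chr2:25926596-25982749, minus strand) had 707 and 696 normalized counts in Ctrl and 317 and 351 without glucose, a log2 fold change of -1.07 ± 0.09 (adjusted p = 3.5e-06) that was called under every alternative run. KIF3B, which can pair with KIF3A, had 1427 and 1378 in Ctrl and 1809 and 1768 without glucose, higher by 0.35 ± 0.06 (adjusted p = 0.0012). KIF3A had 2393 and 2281 in Ctrl and 2274 and 2098 without glucose (-0.10 ± 0.07, adjusted p = 0.29, and above 0 with library totals). The order of the 3 genes did not change, but their proportions did: per kb, KIF3C made up 17.2% and 17.6% of the KIF3 genes and KIF17 together in Ctrl and 7.98% and 9.21% without glucose, while KIF3B went from 31.8% and 31.9% to 41.8% and 42.6%. KIFAP3 had 1947 and 1926 normalized counts in Ctrl and 1994 and 1917 without glucose (0.01 ± 0.06, adjusted p = 0.89). KIF17, a homodimeric motor of the same branch, had 4.21 to 7.90 in the 4 libraries, and its fold change of -0.17 ± 0.51 took either sign.

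The KIF5 genes encode conventional kinesin, which moves mitochondria, lysosomes and many vesicles. KIF5B, its widely expressed form (chr10:32009010-32056431, minus strand), had 20809.8 and 20709 normalized counts in Ctrl and 18498 and 17124 without glucose (log2 fold change -0.22 ± 0.05, adjusted p = 0.0055). That change was close to the median of all coding genes averaging 1000 or more (-0.24), and with scaling to library totals it was -0.011 (adjusted p = 0.83). KIF5B made up 99.6% or more of the KIF5 genes per kb in every library. The neuronal forms were low, KIF5A at 64.2 and 73.6 in Ctrl and 53.1 and 54.7 without glucose (-0.35 ± 0.19, adjusted p = 0.19) and KIF5C at 1.34 to 4.55 (0.13 ± 0.72, adjusted p = 0.92).

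KIFC2 and KIFC3, motors that move towards the minus end, were low. KIFC2 had 190.3 and 151 normalized counts in Ctrl and 77.3 and 136 without glucose (log2 fold change -0.72 ± 0.23, adjusted p = 0.031), with the No glucose libraries far apart. Its longest coding transcript is 67.8% GC, and GC content went with the difference between ONG_10 and ONG_9 across kinesins; its part in the result was not tested. Without ONG_9 its fold change was -0.31 (adjusted p = 0.27), and DESeq2 did not call it (adjusted p = 0.093). KIFC3 had 21.98 and 20.1 in Ctrl and 13.6 and 21.0 without glucose (-0.29 ± 0.33, adjusted p = 0.55). KIF16B, an endosome motor, had 1 read in CTRL_7 and 0 in the other libraries and was not tested.

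**Figure D4:**
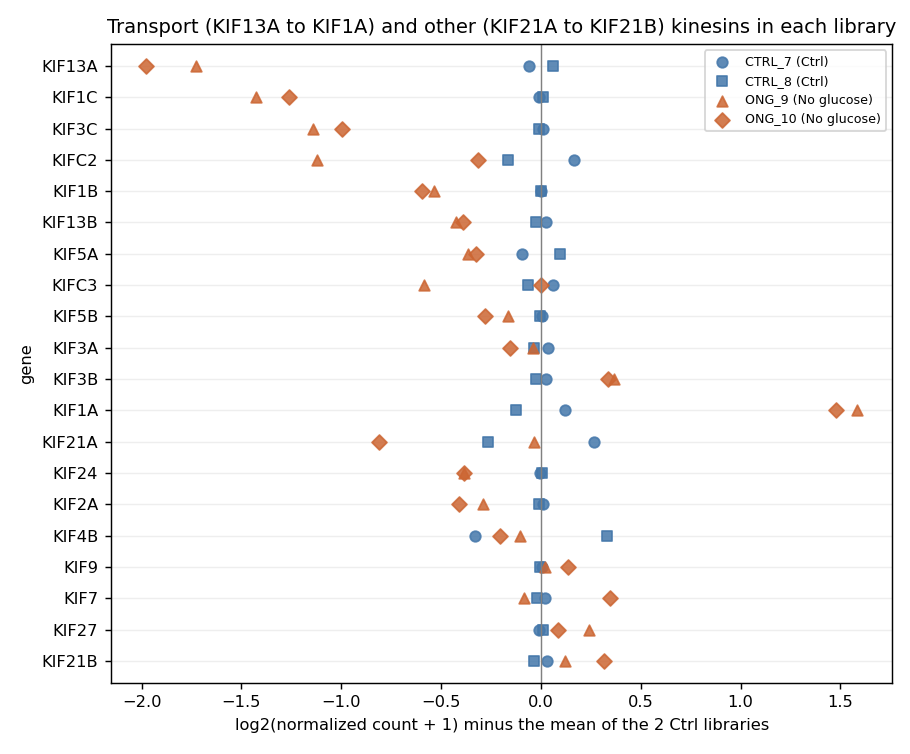
Level of each transport and other kinesin averaging 10 normalized counts or more in each library, as log2(normalized count + 1) minus the mean of the 2 Ctrl libraries. KIF13A, KIF1C and KIF3C have both No glucose libraries near or beyond 1 log2 unit below Ctrl, KIF3B and KIF1A have both above, and the No glucose libraries of KIFC2, KIFC3, KIF21A and KIF7 lie far apart.

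Of the 10 other kinesins tested, 2 fell and 1 rose, against 20.7% and 14.4% of all genes tested. These 3 averaged 1000 or more, a level at which 54.2% of coding genes fell and 18.2% rose. The rest averaged less, so neither share is matched to the 10 in level. The median of the 10 was -0.04, and 0.16 with library totals, where that of all genes tested was 0.04 and 0.23. KIF2A, which shortens microtubules at spindle poles and in growing cell processes, had 6458 and 6380.4 normalized counts in Ctrl and 5258 and 4827 without glucose (log2 fold change -0.35 ± 0.06, adjusted p = 0.00059), close to the value of its relative KIF2C. KIF24, which holds back cilium formation at centrioles, had 1467 and 1479 in Ctrl and 1128 and 1127 without glucose (-0.39 ± 0.07, adjusted p = 0.00073). KIF21B, which limits microtubule growth and is known in T cells for work at the immunological synapse, had 3771 and 3602 in Ctrl and 4004 and 4589.6 without glucose. Its rise was small, 0.22 ± 0.07 (adjusted p = 0.032). It was not called with TMM scaling (adjusted p = 0.092) or with every gene above 0 tested (adjusted p = 0.052). Nor was it called without CTRL_7 (0.25), without CTRL_8 (0.19) or without ONG_10 (0.12). Its longest coding transcript is 59.7% GC, and ONG_10 was above ONG_9. The part of GC content in the result was not tested.

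The other 7 tested in this set were not called with the deposited scaling and all 4 libraries, and KIF27 was called higher with library totals. KIF7, a regulator of Hedgehog signalling at the cilium tip, had 385 and 373 normalized counts in Ctrl and 358 and 483 without glucose (log2 fold change 0.13 ± 0.13, adjusted p = 0.48), so that one No glucose library was below and the other above Ctrl. KIF27, its relative, had 509.7 and 516 in Ctrl and 606 and 544 without glucose (0.16 ± 0.09, adjusted p = 0.19), and 19% of the 75-base stretches of its longest coding transcript also occur in transcripts of other genes, so its level is uncertain. KIF9, a motor of motile cilia, had 173 to 191 in the 4 libraries (0.08 ± 0.12, adjusted p = 0.66) and is uncertain, since KIF9-AS1 overlaps 13% of its exon bases on the other strand. KIF21A, a motor that stops microtubule growth at the cell cortex, had 105 and 72.2 in Ctrl and 84.9 and 49.1 without glucose (-0.42 ± 0.26, adjusted p = 0.25). KIF4B, an intronless copy of KIF4A that shares 4.53% of such stretches with it, had 8.93 to 14.7 and KIF6 2.81 to 6.69, neither called (adjusted p = 0.81 and 0.36). KIF26B was at 1.52 or less (adjusted p = 0.59). KIF2B had no read in any library, and KIF12, KIF19, KIF25 and KIF26A had at most 1 read in each, so these 5 were not tested.

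Per kb of exon, the highest kinesin in Ctrl was KIF11, at 4491 ± 5.48 normalized counts per kb (SD, n = 2), followed by KIF5B at 3532 ± 12.1 and KIF22 at 2815 ± 56.3. Without glucose KIF5B was at 3031 ± 165 and KIF11 at 2955 ± 132. Both genes were lower in ONG_10 than in ONG_9, so these SDs are partly shared and do not settle the order. Within each No glucose library KIF5B was above KIF11 per kb, and within each Ctrl library it was below. The difference was not tested. KIF2A, at 1767 ± 15.2 in Ctrl, lay level with the mitotic KIF23 at 1769 ± 8.41. The lowest mitotic kinesin, KIF18B at 596 ± 27.9, was above every transport kinesin except KIF5B.

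**Figure D5:**
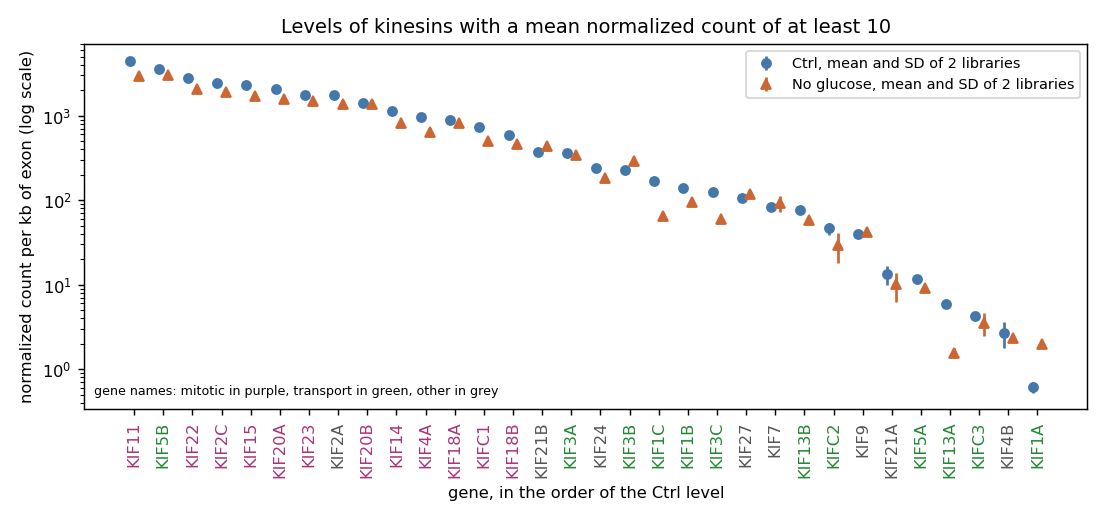
Mean normalized count per kb of exon, on a log scale, of the 32 kinesins averaging 10 normalized counts or more, with the SD of 2 libraries, in the order of the Ctrl level. KIF11 and KIF5B are highest in both groups, and all 12 mitotic kinesins lie within the 14 highest.

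Of 20 genes that work with mitotic kinesins 17 fell and 1 rose, with a median log2 fold change of -0.33, where 54.2% of coding genes averaging 1000 or more fell and their median was -0.24. AURKB, the kinase that KIF20A carries, had 4813 and 4676 normalized counts in Ctrl and 2230.3 and 2136 without glucose (-1.12 ± 0.06). BIRC5, of the same complex, changed by -0.74 ± 0.06, and HMMR, a spindle protein, by -0.56 ± 0.06. NUMA1, which anchors dynein at spindle poles, was the 1 that rose, by 0.49 ± 0.08. CENPE, a kinetochore kinesin whose symbol falls outside the rule, had 11342 and 11467 in Ctrl and 10498 and 9746 without glucose (-0.17 ± 0.05, adjusted p = 0.026). With library totals 9 of the 20 fell and 2 rose, a scaling under which 3818 of all genes tested fell and 6106 rose. Without CTRL_7, and likewise without CTRL_8, 2 of the 20 fell.

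Cargo adaptors and the opposing motor, dynein, had calls in both directions. Of 21 kinesin adaptors tested 4 rose and 3 fell, with a median of 0.02, against 14.4% and 20.7% of all genes tested. Of coding genes averaging 50 or more 18.9% rose and 47.2% fell, with a median of -0.20. Most, but not all, of the adaptors tested were at that level. With library totals, which moved all genes upwards as given above, 8 adaptors rose and none fell, with none lower at an unadjusted p under 0.05. The scaffold MAPK8IP3 (0.52 ± 0.12) and the kinesin light chain KLC4 (0.52 ± 0.09) rose, and the mitochondrial anchor RHOT2 changed by -0.48 ± 0.14. Of 23 dynein and dynactin genes 9 fell and 6 rose, with a median of -0.10, against the same shares of all genes and 54.2% and 18.2% of coding genes averaging 1000 or more. With library totals 4 fell and 10 rose. DYNLL1 (-0.91 ± 0.05), DYNLL2 (-0.66 ± 0.06) and DYNC1LI1 (-0.59 ± 0.06) fell. DYNC1LI2, the other light intermediate chain, went from 2945 and 2908 normalized counts in Ctrl to 5081 and 4786 without glucose (0.75 ± 0.06, adjusted p = 1.7e-06), opposite to DYNC1LI1, and the heavy chain DYNC1H1 changed by 0.03 ± 0.04 (adjusted p = 0.64).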

How the data were processed

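Per the submitters' processing notes, the tools were STAR 2.6.0c, RSEM 1.3.0 and DESeq2 1.18.1, and the build was hg38; the annotation release and counting strand are not given in the sources used here. The signal values deposited by the authors are counts divided by a size factor per library. The log2 fold changes, the test-statistic scores and the p-values deposited by the authors served only to count their calls: at an adjusted p under 0.05 that table has 18 kinesins lower and 2 higher, with KIF1A and KIFC2 called here only.

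Divided by the library's smallest step, 100% of the normalized counts came out whole to within 0.01 read. The table's 60868 rows hold 60609 identifiers; repeats were dropped. The 2 ONG columns were read as No glucose, since the table covers no other group.

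On log2(normalized count + 1), limma 3.58.1 with a trended prior (R 4.3.3) compared the groups for the 27486 genes averaging 1 or more. Tests were two-sided, and p-values were adjusted by Benjamini-Hochberg with a threshold of 0.05; fold changes on that scale understate the change of low genes. Exon lengths and coordinates are from GENCODE 29. Alternatives used edgeR 4.0.16, DESeq2 1.42.0 and limma-voom on recovered reads (edgeR called 6292 genes lower and 3964 higher), other scalings, other low-count filters, pseudocounts of 0.5 and 5, and fits leaving out 1 library; limma was tested on simulated data. Every tested kinesin is named, and of each companion list the 3 called members with the largest change in the main direction and 1 in the other, except 1 adaptor that is not reported here; CENPE, KIFAP3 and DYNC1H1 were added after their values were seen. Members and lists were chosen with earlier results of these data known.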

Additional observations from a re-analysis of the deposited data

How the results depend on the processing

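No paired analysis was possible because the columns carry no replicate numbers that the labels share. Scaling to library totals ended the calls of KIF5B, KIF23, KIF18B, KIF13B and KIFC2, and centring on coding genes ended those and also KIF2C and KIF2A. Having 2 libraries per group limits every test, and the fits without a Ctrl library rest on the spread of the No glucose pair. For genes with few reads, such as KIF1A and KIF13A, depth limits the precision. Of 48 genes chosen by the naming rule, 45 or more kept direction and call with edgeR, DESeq2, limma-voom, TMM scaling, either pseudocount (0.5 or 5) and no filter, and 44 of 44 with a mean of at least 10; 36 did with library totals and 35 with centring on coding genes. The causes of the changes below were not tested.

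Leaving out each library in turn, the count of kinesins lower ranged from 3 to 20 and higher from 0 to 3; mitotic lower 0 to 12; transport lower 3 to 7 and higher 0 to 1; other lower 0 to 2 and higher 0 to 2; partners lower 2 to 17 and higher 0 to 1; adaptors lower 0 to 4 and higher 0 to 4; dynein and dynactin genes lower 3 to 10 and higher 1 to 6; and all genes lower 1573 to 5708 and higher 635 to 3024.

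With library totals, mitotic kinesins higher numbered 1, transport lower 4, other higher 2, the family higher 5, partners lower 9 and higher 2, adaptors lower 0 and higher 8, dynein and dynactin genes lower 4 and higher 10, and all genes higher 6106. With centring on coding genes, chosen after seeing the data, transport lower numbered 4, other lower 1 and higher 2, the family lower 12, partners lower 9 and higher 2, adaptors lower 0 and higher 7, dynein and dynactin genes lower 5, and all genes higher 6146. DESeq2 gave transport higher 1, adaptors lower 1 and all genes higher 2276. Adaptors lower numbered 5 with edgeR, limma-voom and TMM scaling. Other kinesins higher numbered 0 with TMM scaling and with every gene above 0.

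Signs turned only for genes not called with the deposited scaling and all 4 libraries. Of these, KIF20B was called higher with library totals. With library totals the log2 fold change was 0.11 for KIF18A, 0.179 for KIF20B (adjusted p = 0.021), 0.036 for KIF4B, 0.011 for KIF17 and 0.114 for KIF3A. With centring on coding genes it was 0.098 for KIF18A, 0.165 for KIF20B, 0.024 for KIF4B and 0.10 for KIF3A. With limma-voom it was 0.052 for KIF4B and -0.102 for KIF5C, and with edgeR -0.179 for KIF5C. Leaving out each library in turn, it ranged from -0.112 to 0.048 for KIF20B, -0.487 to 0.175 for KIF4B, -0.082 to 0.348 for KIF7, -0.587 to 0.003 for KIFC3, -0.529 to 0.191 for KIF17 and -0.476 to 0.731 for KIF5C.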

Other observations

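Among the 28 kinesins averaging 50 normalized counts or more, the log2 ratio of ONG_10 to ONG_9 went with the GC content of the longest coding transcript, with Pearson's r = 0.783 and Spearman's rho = 0.881 across genes, which share the 2 libraries and are not independent replicates. KIFC2 (67.8% GC), KIF7 (64.1%) and KIF18B (58.4%) were higher in ONG_10 by 0.81, 0.43 and 0.23, and KIF18A (37.0%) and KIF20B (34.2%) were lower by 0.17 and 0.16. Across the same genes the log2 fold change between groups had r = -0.207 and rho = -0.185 with GC content.

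Genes that overlap kinesin exons on the other strand had few reads in most cases. KIF9-AS1 had 113, 28, 31 and 23 reads in CTRL_7, CTRL_8, ONG_9 and ONG_10, over 13% of the exon bases of KIF9, and KIF1C-AS1 had 13, 3, 1 and 5. KIFC2 shares 21.7% of its exon bases with FOXH1, which had at most 3 reads in a library. The coding genes METTL15, CDC23, UBAP1, TICRR and KLHL18 overlap KIF18A, KIF20A, KIF24, KIF7 and KIF9 over 1.03% to 3.41% of the kinesin's exon bases and were well read themselves. KIF25-AS1 had 1 read in all, and KIF26B-AS1 none. The library kit marks strand, but the strand setting of the counting is not given in the sources used here.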
